A study of Mus musculus with 6 samples.

Results

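The genes described here act in the entry of pyruvate into the mitochondrial matrix, its conversion to acetyl-CoA and the control of that step. They are both subunits of the mitochondrial pyruvate carrier (Mpc1 and Mpc2), 3 subunits of the pyruvate dehydrogenase (PDH) complex (Pdha1, Pdhb and Dlat), 3 PDH kinases (Pdk1, Pdk2 and Pdk3) and 2 PDH phosphatases (Pdp1 and Pdp2). They were picked by symbol, for their known roles, and all 10 were found on 1 row each among 55291 distinct symbols and were among the 13170 genes tested. The cells were CD4+ T cells from the spleen of naive wild-type C57BL/6 mice, labelled with the division dye CFSE. For 48 h all cultures received anti-CD3, anti-CD28 and 200 U of IL-2, together with 5 mM itaconate in 3 libraries and 5 mM NaCl in the 3 control libraries. Itaconate is a dicarboxylate that activated macrophages make from a TCA cycle intermediate. In the deposited table the control columns are coded NAC. This was taken to mean NaCl, the only treatment besides itaconate in the labels, and the code is not explained there.

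Pyruvate made by glycolysis in the cytosol crosses the inner mitochondrial membrane through a heterodimer of MPC1 and MPC2. In the matrix the PDH complex converts it to acetyl-CoA, with PDHA1 and PDHB forming the decarboxylating E1 component and DLAT carrying the lipoyl arms of the E2 core. PDH kinases switch the complex off by phosphorylating PDHA1, and PDH phosphatases switch it on again by removing the phosphate. Activated T cells are known for sending much of their pyruvate to lactate, and PDK1 is a textbook target of hypoxia-inducible factor (HIF) in many cells.

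Transcripts of the kinases Pdk1 and Pdk3 fell with itaconate, and those of both phosphatases and of the target subunit Pdha1 rose. The kinase Pdk2, which was scarce in the controls, went the other way from Pdk1 and Pdk3 and rose. The carrier subunits and the PDH subunits Pdhb and Dlat did not pass the test. Of the 10 genes 4 rose and 2 fell at an adjusted p below 0.05 (limma, Benjamini-Hochberg), where 36.0% of all tested genes passed (18.2% higher and 17.8% lower). The median absolute log2 fold change was 0.48 over the 10 genes and 0.33 over all tested genes. The signed median was 0.09 over the 10 genes and 0.00 over all tested genes. Values are normalized estimated counts, that is, reads assigned to a gene by RSEM and scaled between libraries by the authors, and all fold changes were computed from log2(value + 1). These are bulk libraries, in which a change in the share of a cell type and a change in RNA per cell cannot be told apart.

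**Figure D1:**
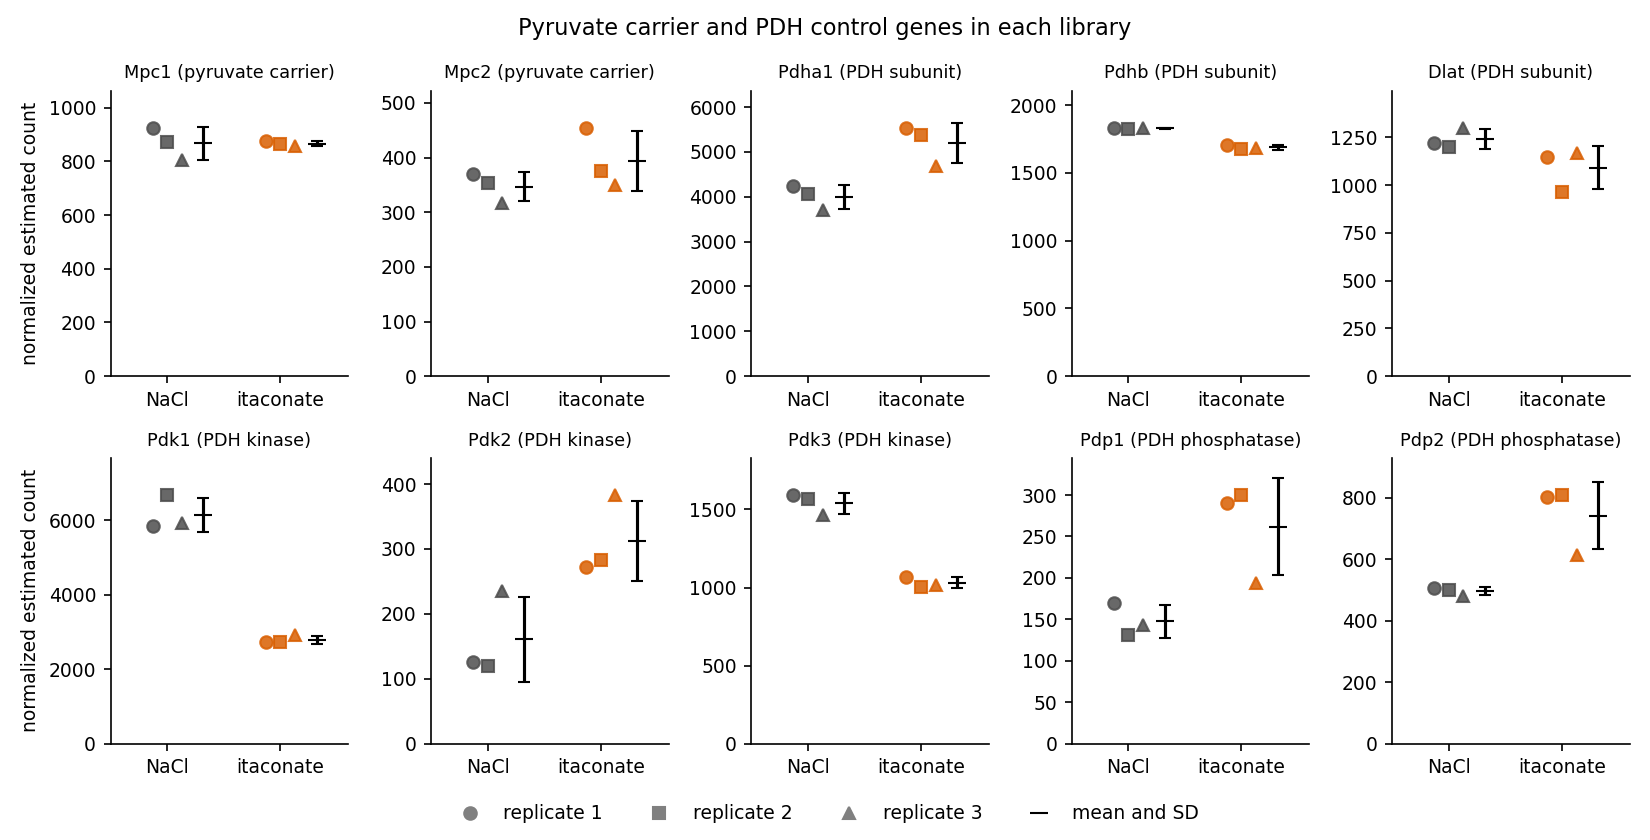
Normalized estimated count (vertical axis, from 0) of each of the 10 genes in the 3 NaCl and 3 itaconate libraries; marker shapes are replicate numbers and bars are the mean and SD. The groups lie apart for Pdha1, Pdhb, Dlat, the 3 kinases and the 2 phosphatases, and overlap for Mpc1 and Mpc2.

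The libraries held 20074299 to 24144999 estimated reads, of which 119 to 373 fell on Pdk2 and 130 to 311 on Pdp1, the fewest of the 10 genes. Whether the 3 libraries of a group are separate mice or cultures is not in the labels, and the p-values then reflect only how these samples scatter, part or all of which may be technical. All 9 T cell markers were well above 0, with a summed value of 67486.1 to 69739.1 with itaconate and 60345.1 to 66724.5 in the controls. Of these 9, 3 passed as higher and 1 as lower. Cd4 was at 13094.5 to 13961.8 with itaconate and 8559.4 to 10191.2 with NaCl, and Cd3g at 3092.5 to 3227.9 and 3844.7 to 4572.7. The 2 CD8 T cell markers summed to 307.9 to 365.2 with itaconate and 363.1 to 407.9 with NaCl, and 0 of them passed. B cell markers summed to 1830.4 to 1959.3 with itaconate and 1173.8 to 1418.7 with NaCl, with Ighm as the 1 of 5 that rose. Myeloid markers summed to 151.3 to 198.3 and 56.1 to 90.5. Of these 5 markers Itgam and Cd68 rose, and Lyz2, Csf1r and Adgre1 were at or under 9.7 in every library. The part of these markers in the results was not tested.

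The promoter stretches of the 3 kinases are shown because the kinases are the genes whose directions differed. The sequences are from RefSeq on GRCm38, the 250 bases before the first annotated start, cut to 199 bases for Pdk3 so that no annotated untranslated region is included. Capitals mark ACGTG or GCGTG on either strand, the core of the HIF response element.

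Pdk1, chr2:71872974-71873223, plus strand: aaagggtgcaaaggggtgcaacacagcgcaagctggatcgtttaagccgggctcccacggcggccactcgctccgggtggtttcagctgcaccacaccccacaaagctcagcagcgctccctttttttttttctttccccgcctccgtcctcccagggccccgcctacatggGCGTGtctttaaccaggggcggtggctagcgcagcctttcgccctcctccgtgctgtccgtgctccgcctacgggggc
Pdk2, chr11:95041372-95041621, minus strand: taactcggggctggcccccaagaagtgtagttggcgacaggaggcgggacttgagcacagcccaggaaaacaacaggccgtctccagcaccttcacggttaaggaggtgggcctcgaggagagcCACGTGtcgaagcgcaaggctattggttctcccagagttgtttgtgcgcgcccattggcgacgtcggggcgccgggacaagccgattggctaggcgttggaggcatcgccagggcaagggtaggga
Pdk3, chrX:93832202-93832400, minus strand: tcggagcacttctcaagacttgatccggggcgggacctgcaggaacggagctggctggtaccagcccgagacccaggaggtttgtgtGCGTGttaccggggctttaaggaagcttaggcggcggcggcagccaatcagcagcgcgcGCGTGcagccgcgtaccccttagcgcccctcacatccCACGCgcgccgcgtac

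In the window of Pdk1 GCGTG occurred once, 78 bases before the start. Pdk2 had ACGTG on both strands within a single CACGTG, an E-box at which the 2 matches overlap, starting 126 bases before the start. Pdk3 had 3 matches to GCGTG, at 163, 104 and 67 bases before the RefSeq start, the 51 bases next to that start being cut. The uncut 250 bases also held 1 ACGTG, 53 bases before that start, which the cut split. Either core stood in 38.6% of all 27025 promoters over the same 250 bases and in 31.4% over the 199 bases used for Pdk3, so a match in such a window is common. A RefSeq promoter was found for 9 of the 10 genes, without Pdp1. Matches were not particular to the kinases. In the uncut 250 bases before the first start, Pdha1 had 3 matches to GCGTG. Pdhb, Mpc1 and Mpc2, which did not pass, also held a core, and Dlat held none. Pdp2, which rose, had a CACGTG as Pdk2 did. The part of these matches in the results was not tested.

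Of the kinases 2 fell and 1 rose. Pdk1 encodes the isoform that also phosphorylates a site of PDHA1 that the others leave alone, and lies at chr2:71873224-71903858 (GRCm38). Its normalized estimated count was 2724.5, 2730.5 and 2911.8 in itaconate replicates 1, 2 and 3 and 5847.7, 6676.3 and 5940.9 in NaCl replicates 1, 2 and 3. The itaconate libraries lay close together, far below the lowest control. Pdk1 stood at percentile 93.5 of all tested genes by mean value, and 10.3% of tested genes changed by as much or more in either direction. The fall was 2.2-fold (log2 fold change −1.14 ± 0.0854 SE, limma adjusted p = 2.34e-06).

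Pdk3, a kinase isoform encoded on the X chromosome (chrX:93764607-93832201) and known as the most active and the least restrained by pyruvate, was at 1070.0, 1005.4 and 1013.0 with itaconate. In the controls it was at 1590.9, 1566.1 and 1464.1. The lowest control was above the highest itaconate library, and the fall was 1.5-fold (log2 fold change −0.58 ± 0.094 SE, limma adjusted p = 0.000492).

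Pdk2, the isoform found in most tissues (chr11:95026258-95041354), was at 272.2, 282.5 and 382.8 with itaconate and 126.5, 119.5 and 236.0 with NaCl. Replicate 3 was the highest library in each group, and the groups lay apart by a narrow margin between NaCl replicate 3 and itaconate replicate 1. The rise was 2.01-fold (log2 fold change 1.01 ± 0.25 SE, 95% interval 0.467 to 1.552, limma adjusted p = 0.00736), the widest interval of the 10 genes. Left out in turn, single libraries gave log2 fold changes from 0.83 without NaCl replicate 2 to 1.32 without NaCl replicate 3, with the call kept each time. Without the intensity trend of the variance the adjusted p was 0.0536, in a range of 0.000665 to 0.0536 over the alternatives. Pdk4, the isoform induced by fasting, was too low to be tested, at 0.0, 0.0 and 7.2 with itaconate and 7.1, 13.1 and 6.4 with NaCl.

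Divided by transcript length, Pdk1 made up 58.2%, 61.8% and 58.9% of the transcripts of the 4 kinases in the controls and 45.6%, 46.7% and 46.3% with itaconate. Pdk3 made up 36.6 ± 1.88% in the controls and 41.8 ± 2.22% with itaconate (SD, n = 3), although its own level fell. The share of Pdk2 went from 2.90%, 2.55% and 5.40% to 10.5%, 11.2% and 14.1%. The ratio of Pdk1 to Pdk2 per length was 20.0, 24.2 and 10.9 in the controls and 4.34, 4.19 and 3.29 with itaconate. The sum of Pdk1, Pdk2 and Pdk3 was 1987 ± 81.8 normalized counts per kb in NaCl and 1164 ± 42.7 with itaconate (SD, n = 3), so the rise of Pdk2 was small beside the fall of the other kinases. These shares combine the chosen genes and have no test.

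**Figure D2:**
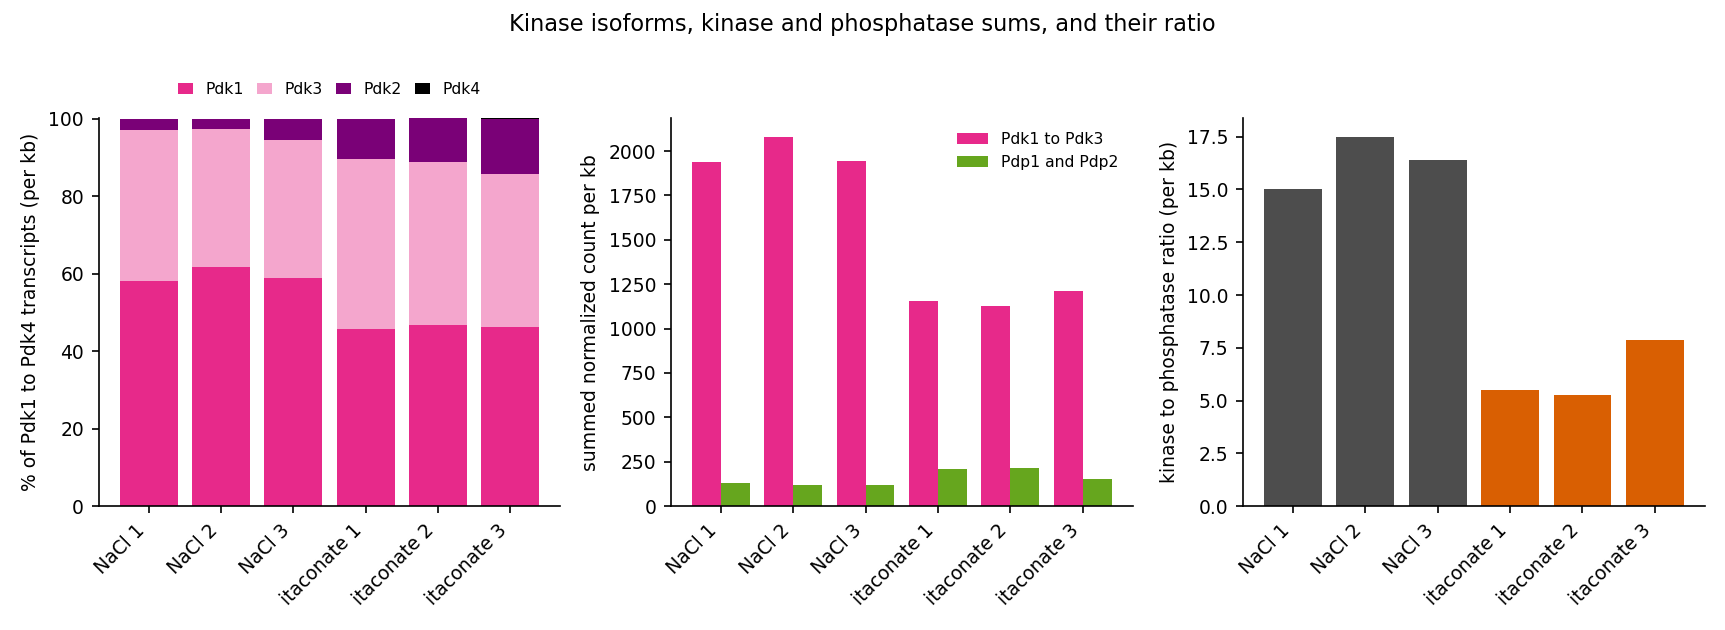
Left, the share of each kinase among Pdk1 to Pdk4 transcripts per kb (%); middle, summed normalized count per kb of the kinases and of the phosphatases; right, the ratio of these sums, in each library. The share of Pdk1 was 58.2% to 61.8% in NaCl and 45.6% to 46.7% with itaconate, and the ratio was 15.0 to 17.5 and 5.28 to 7.85.

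Both phosphatases rose. Pdp2 encodes the phosphatase known to be insensitive to calcium (chr8:104591451-104599026) and was at 803.4, 808.8 and 615.8 with itaconate and 506.9, 499.3 and 482.0 with NaCl. The groups did not overlap, and itaconate replicate 3 lay nearest to the controls (log2 fold change 0.57 ± 0.132 SE, limma adjusted p = 0.00485). Without that library the log2 fold change was 0.70.

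Pdp1, which encodes the calcium-stimulated phosphatase (chr4:11958184-11966452), was at 290.9, 299.7 and 194.0 with itaconate and at 169.3, 130.6 and 143.4 with NaCl. Here too the groups lay apart and itaconate replicate 3 was the lowest of its group, not far above the highest control (log2 fold change 0.80 ± 0.207 SE, limma adjusted p = 0.00926). The call ended without itaconate replicate 2 (log2 fold change 0.69, adjusted p = 0.0528), in a range of 0.00134 to 0.0528 over the alternatives.

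Per length, the 2 phosphatases summed to 122 ± 6.08 normalized counts per kb in NaCl and 193 ± 33.3 with itaconate (SD, n = 3). The ratio of summed kinases to summed phosphatases was 15.0, 17.5 and 16.4 in the NaCl libraries and 5.48, 5.28 and 7.85 in the itaconate libraries, a 2.63-fold lower mean. Itaconate replicate 3 was the highest of its group and still well below every control. The ratio is of transcripts, has no test, and says nothing of the amount or activity of the proteins.

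Among the PDH subunits Pdha1 stood alone in passing. Pdha1 encodes the E1 alpha subunit, the protein on which kinases and phosphatases act (chrX:160122209-160138413). It was at 5537.7, 5380.1 and 4694.4 with itaconate and 4229.9, 4051.1 and 3698.4 with NaCl, and all itaconate libraries were above all controls. The rise was 1.3-fold (log2 fold change 0.38 ± 0.0922 SE, limma adjusted p = 0.00642), and 44.8% of tested genes changed by as much or more. Exons of Pdha1 overlap exons of Map3k15 on the opposite strand, and the strand setting of the counting is not given in the sources used here. Map3k15 had a mean value of 45.8 and did not pass.

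Pdhb encodes the E1 beta subunit, which pairs with PDHA1 (chr14:8165996-8173025). It was at 1709.7, 1674.6 and 1681.2 with itaconate and 1833.6, 1826.3 and 1832.7 with NaCl, so that the groups lay apart with very little spread. With a variance shared among genes of like level it did not pass (log2 fold change −0.12 ± 0.0849 SE, 95% interval −0.301 to 0.067, limma adjusted p = 0.309). The processed pseudogene Gm6123 shares 41.9% of the 31-base sequences of the Pdhb transcript and was listed at a mean of 2.3.

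Dlat, of the E2 core (chr9:50634633-50659780), was at 1147.6, 961.4 and 1166.0 with itaconate and 1219.7, 1199.4 and 1299.8 with NaCl. The itaconate libraries were all lower, replicate 2 the most (log2 fold change −0.19 ± 0.107 SE, 95% interval −0.419 to 0.043, limma adjusted p = 0.191). Per length, Pdha1 exceeded Pdhb by a ratio of 1.23, 1.18 and 1.07 in the NaCl libraries and 1.72, 1.71 and 1.48 with itaconate, while the ratio of Dlat to Pdhb was 0.254 ± 0.0106 and 0.242 ± 0.0238 (SD, n = 3).

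The pyruvate carrier did not pass. Mpc1 (chr17:8282904-8297661) was at 875.4, 865.8 and 857.0 with itaconate and 925.0, 873.0 and 803.3 with NaCl, with the itaconate values inside the range of the controls. Its log2 fold change was 0.00 ± 0.104 SE, with a 95% interval of −0.225 to 0.226 and no fixed sign across scalings (limma adjusted p = 0.997). The pseudogene Mpc1-ps, which shares 24.8% of the 31-base sequences of Mpc1, was listed at a mean of 23.2.

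Mpc2, the partner subunit (chr1:165460637-165481214), was at 454.6, 376.0 and 349.0 with itaconate and 370.2, 352.6 and 317.7 with NaCl. The groups overlapped, itaconate replicate 1 being the highest library (log2 fold change 0.17 ± 0.148 SE, 95% interval −0.146 to 0.494, limma adjusted p = 0.386). In all, the groups lay apart for 8 of the 10 genes, where they did so for 48.4% of all tested genes.

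**Figure D3:**
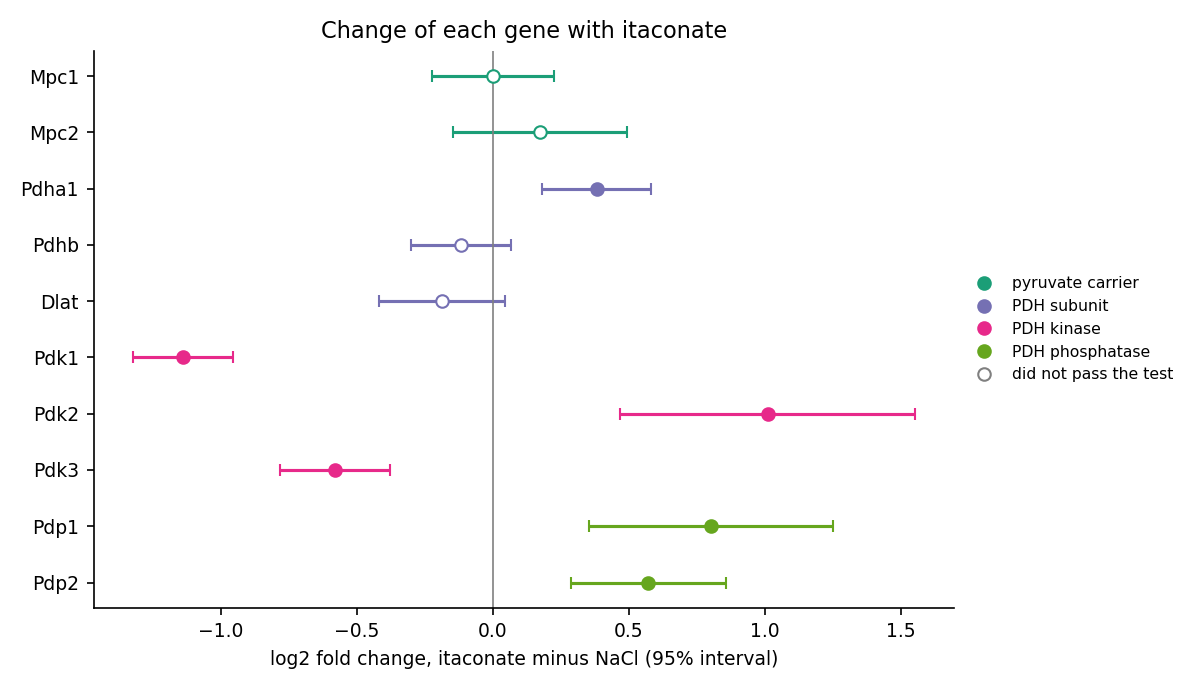
Log2 fold change of each gene, itaconate minus NaCl, with the 95% interval of the limma fit; open circles did not pass the adjusted threshold. Pdk1 and Pdk3 lie below 0, and Pdk2, Pdp1, Pdp2 and Pdha1 above it.

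Levels were compared between genes per kb of the longest coding transcript. In the NaCl libraries Pdha1 was highest at 1402 ± 95 normalized counts per kb, followed by Pdhb at 1210 ± 2.64 and Pdk1 at 1187 ± 87.5 (SD, n = 3). The last 2 overlapped. Next came Mpc1 at 902 ± 63.5, Pdk3 at 728 ± 31.8, Mpc2 at 338 ± 26.1 and Dlat at 307 ± 13.2, of which Mpc2 and Dlat overlapped. Lowest were Pdp2 at 87.1 ± 2.24 and Pdk2 at 71.5 ± 29.1, which overlapped, and Pdp1 at 35.2 ± 4.69. With itaconate Pdk1, at 538 ± 20.5, had dropped below Mpc1 at 901 ± 9.58, and Pdk2, at 139 ± 27.2, overlapped with Pdp2 at 130 ± 19.3. The order depended on the length used: per kb of all annotated exons Mpc2 was at 47.2 and Pdk1, at 791, exceeded Pdhb, at 474, in the controls.

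Of 6 tested genes of other parts of the PDH complex and of its lipoylation 1 passed, and it fell (median log2 fold change −0.26), where 36.0% of all tested genes passed. This was Pdpr, which encodes a regulatory subunit of PDP1 that restrains it, at 408.7, 441.5 and 504.0 with itaconate and 649.6, 739.4 and 677.1 with NaCl (log2 fold change −0.61 ± 0.126 SE, limma adjusted p = 0.00249). Dld, the E3 subunit shared with related complexes, was at −0.15 ± 0.113 and Pdhx, the E3-binding protein, at −0.16 ± 0.155, and neither passed. The lipoyltransferase genes Lipt1, at −0.45 ± 0.261 with the groups apart, and Lipt2, at −0.36 ± 0.488 with a 95% interval of −1.418 to 0.696, did not pass either. In the related oxoglutarate and branched-chain dehydrogenase complexes 1 of 7 tested genes passed, and it rose (median 0.05). That gene, Ppm1k, encodes the phosphatase of the branched-chain complex and was at 827.7, 903.4 and 708.2 with itaconate and 468.1, 492.2 and 448.4 with NaCl (log2 fold change 0.78 ± 0.125 SE, limma adjusted p = 0.000436). Its opposing kinase Bckdk was at −0.35 ± 0.148 (limma adjusted p = 0.0827).

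Genes of other sources and fates of pyruvate and acetyl-CoA changed in both directions, 4 of 13 tested genes rising and 6 falling (median log2 fold change −0.09). Over all tested genes 18.2% rose and 17.8% fell. Pkm, whose product makes pyruvate from phosphoenolpyruvate, changed by −0.998 ± 0.0911. Me2, the mitochondrial malic enzyme that makes pyruvate from malate, was at 1648.0, 1315.8 and 1503.6 with itaconate and 3375.6, 3511.9 and 3393.9 with NaCl, a change of −1.21 ± 0.0978 on the log2 scale (limma adjusted p = 3.8e-06). Ldha, Pcx, Gpt2 and Me1 made up the rest of the genes that fell. Me1 rested on low values, 7.5, 1.1 and 0.0 with itaconate and 26.5, 48.2 and 21.8 with NaCl. Among the genes that rose, Acss1, a mitochondrial enzyme that makes acetyl-CoA from acetate without PDH, was at 682.8, 795.9 and 680.5 with itaconate and 324.3, 281.3 and 338.6 with NaCl (log2 fold change 1.19 ± 0.133 SE, limma adjusted p = 3.47e-05). Its cytosolic counterpart Acss2 rose by 0.59 ± 0.14, citrate synthase (Cs), which uses acetyl-CoA in the TCA cycle, by 0.55 ± 0.0871, and the lactate dehydrogenase gene Ldhb by 0.47 ± 0.125. The call of Gpt2 ended without the intensity trend (adjusted p = 0.0577, range 0.000448 to 0.0577 over the alternatives).

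**Figure D4:**
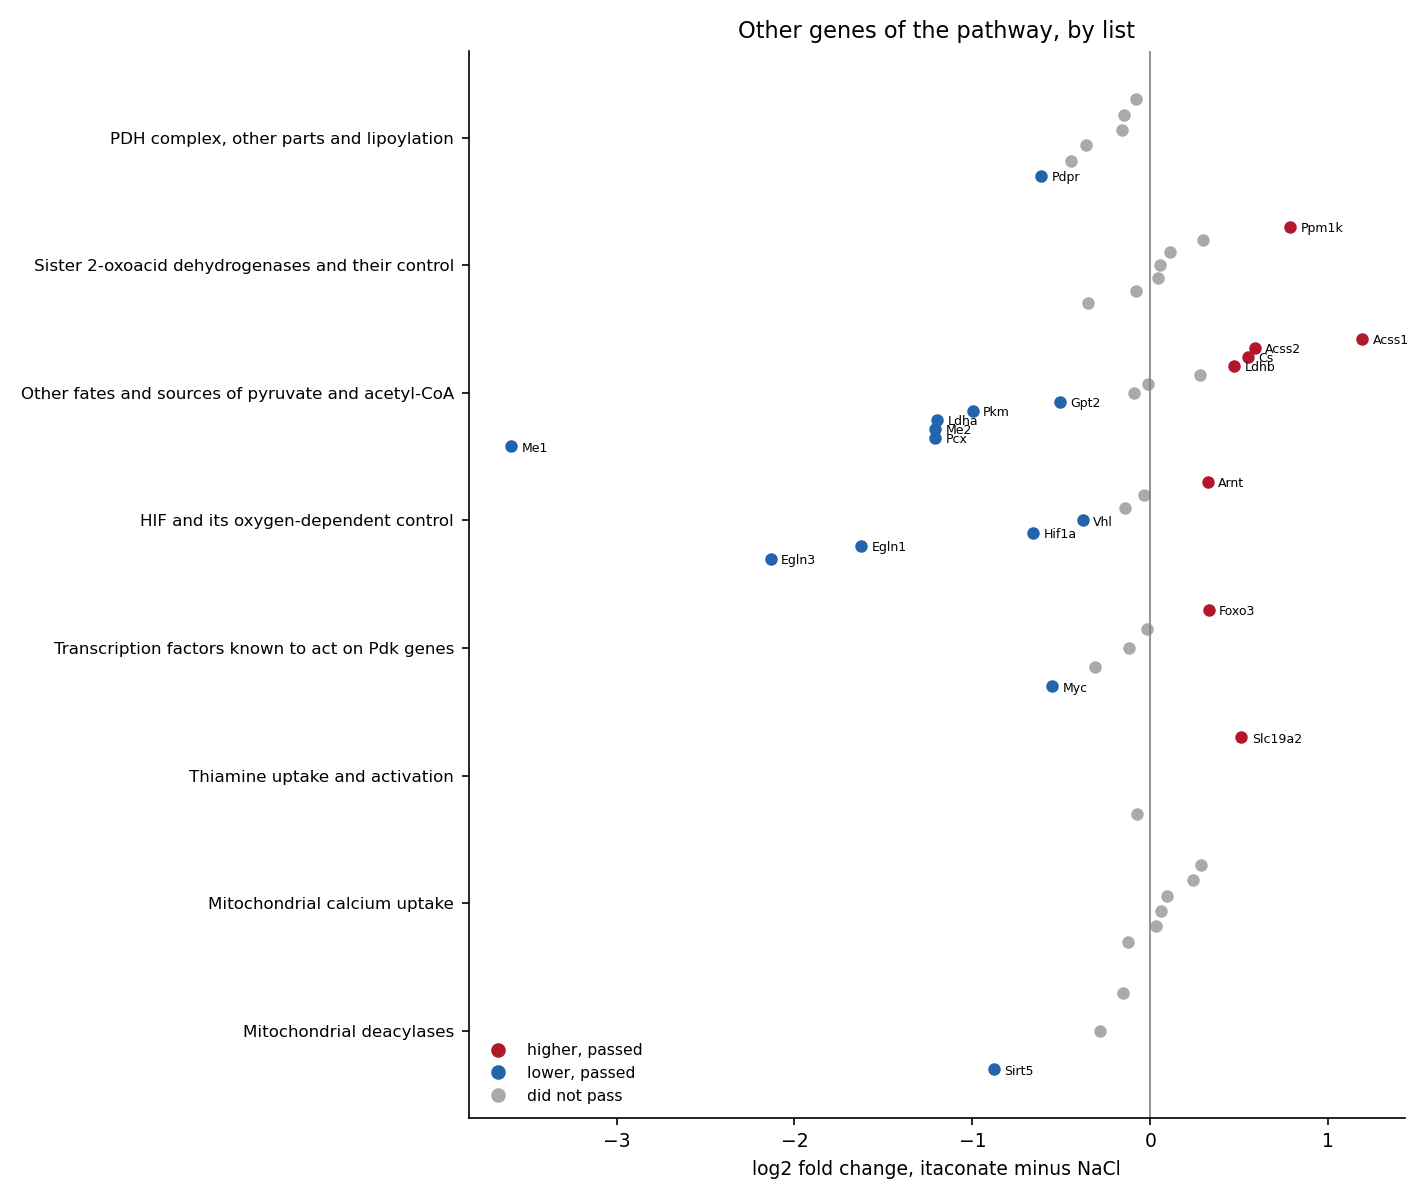
Log2 fold change, itaconate minus NaCl (horizontal axis), of the tested genes of the 8 lists considered here (vertical axis; order within a list is by size); red and blue genes passed the test. Genes of the list of pyruvate and acetyl-CoA fates lie on both sides of 0, and the calcium uptake list has no coloured point.

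Of the 7 genes of HIF and its oxygen-dependent control, 4 fell and 1 rose (median log2 fold change −0.38). Over all tested genes 17.8% fell and 18.2% rose. Hif1a, the regulated subunit of HIF, was at 16620.2, 19632.2 and 25825.6 with itaconate and 32844.5, 34349.8 and 29475.9 with NaCl (log2 fold change −0.66 ± 0.135 SE, limma adjusted p = 0.00234). The prolyl hydroxylase genes Egln1 and Egln3, themselves known HIF targets, changed by −1.63 ± 0.142 and −2.13 ± 0.235. Itaconate replicate 3 was the highest of its group for Hif1a, Egln1 and Egln3, as it was for Pdk1, and lay below every control for each of them. The sizes differed. From itaconate replicate 1 to 3 Egln3 went from 2136.2 to 5197.6, Egln1 from 1494.6 to 2356.6 and Pdk1 from 2724.5 to 2911.8. Itaconate replicate 3 was also the highest of its group for Ldha (30344.8), Pkm (57288.9) and Pdk2 (382.8), of which Pdk2 rose. Among the controls, replicate 2 was the highest for Pdk1, Hif1a and Egln1, and replicate 3 for Egln3. A link between HIF and Pdk1 was not tested. Arnt, the partner of HIF-1 alpha, was at 0.32 ± 0.103 (adjusted p = 0.0266). Its call ended without itaconate replicate 1 (0.067) or 2 (0.127) and without NaCl replicate 2 (0.0585) or 3 (0.106), and without the intensity trend (0.0873), within 0.00574 to 0.127 over the alternatives. Vhl was at −0.38 ± 0.137 (adjusted p = 0.0449), and kept its call in 11 of 19 alternatives. It lost it without itaconate replicate 2 (0.15) or 3 (0.0981) and without NaCl replicate 1 (0.116) or 2 (0.172). It also lost it with no filter on low values (0.0619), without the intensity trend (0.111), with voom weights (0.0608) and after trends with GC content and gene length were taken out (0.057), within 0.0175 to 0.172 over the alternatives.

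Among 5 tested transcription factor genes known to act on Pdk genes, 1 rose and 1 fell (median −0.12), where 36.0% of all tested genes passed. Myc changed by −0.55 ± 0.111. Foxo3 was at 0.33 ± 0.101 (adjusted p = 0.0223), a call that ended without itaconate replicate 2 (0.108), NaCl replicate 1 (0.088) or NaCl replicate 3 (0.069) and without the intensity trend (0.0875). With GC content and length trends removed its log2 fold change was 0.17 and the adjusted p 0.149, or 0.0636 with the replicate block as well, within 0.00344 to 0.149 over the alternatives. Ppara and Ppargc1a, which drive Pdk4 in other tissues, were too low to be tested.

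Thiamine pyrophosphate is the cofactor of the E1 component. Of 2 tested genes of thiamine uptake and activation 1 passed, and it rose (median 0.22), where 36.0% of all tested genes passed. This was the transporter gene Slc19a2, at 1281.4, 1699.3 and 1473.9 with itaconate and 800.6, 1136.2 and 1216.3 with NaCl (log2 fold change 0.51 ± 0.154 SE, limma adjusted p = 0.0203). The call ended without itaconate replicate 2 (adjusted p = 0.103), without NaCl replicate 1 (log2 fold change 0.33, adjusted p = 0.0776) and without the intensity trend (0.106), within 0.00137 to 0.106 over the alternatives.

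Matrix calcium stimulates PDP1. Of the 6 genes of mitochondrial calcium uptake 0 passed in limma, where 36.0% of all tested genes passed. In this list 0 genes had an unadjusted p under 0.05 and 0 passed with voom weights. The median log2 fold change was 0.08, with the pore gene Mcu at 0.03 ± 0.134. Beside the same 36.0% of all tested genes, 1 of 3 mitochondrial deacylase genes passed, and it fell (median −0.28). It was Sirt5, a desuccinylase gene, at 134.7, 97.7 and 143.7 with itaconate and 221.3, 233.1 and 231.5 with NaCl (log2 fold change −0.88 ± 0.197 SE, limma adjusted p = 0.00403). Sirt4, whose product can remove lipoyl groups from DLAT, was at −0.28 ± 0.182 and did not pass.

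Of 10287 genes with a mean of at least 50, those whose values relative to the NaCl mean lay closest to Pdk1 over the 6 libraries were Clcn3, Rbpj and Kdm6b, at root mean square differences of 0.0286, 0.0604 and 0.0692 on the log2 scale. Clcn3, a chloride and proton exchanger gene, was at 1458.1, 1455.5 and 1490.3 with itaconate and 3014.6, 3584.3 and 3074.4 with NaCl, and so shared with Pdk1 the high value of NaCl replicate 2. With 2 groups this likeness is set mostly by the difference between the groups.

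**Figure D5:**
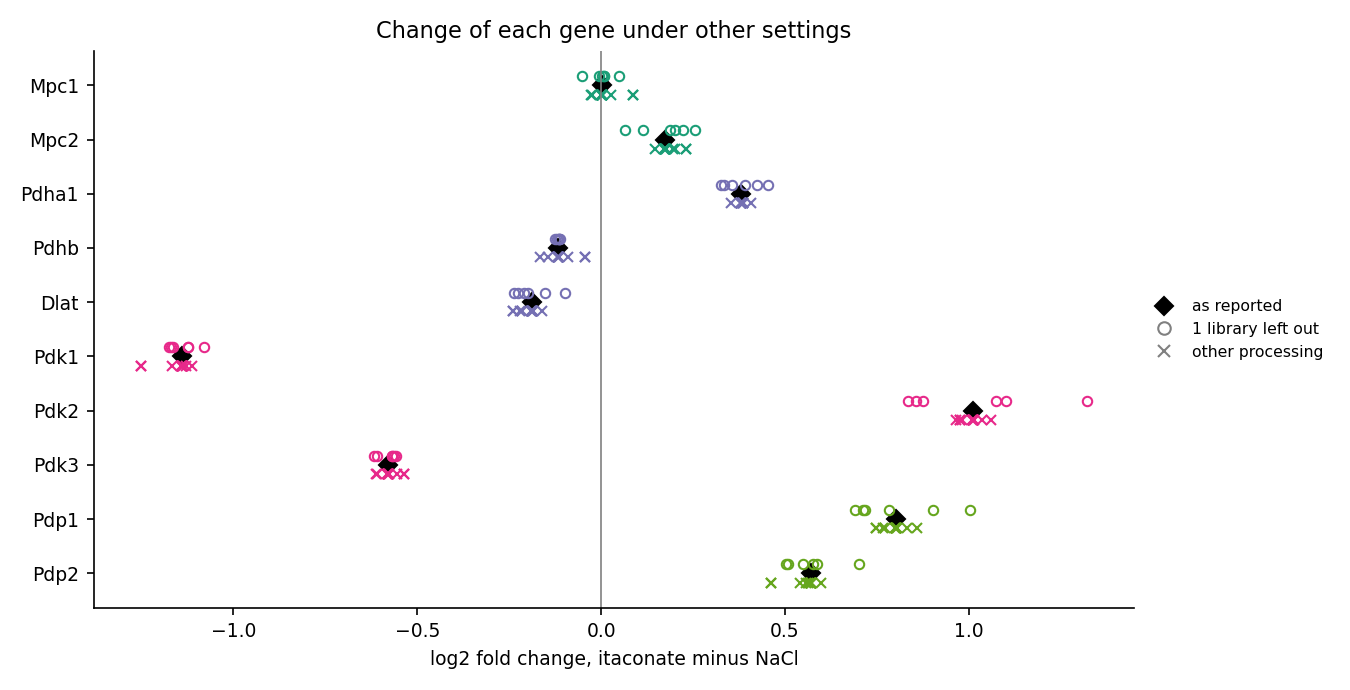
Log2 fold change of each gene (horizontal axis) as reported, with 1 library left out and under the other processing settings. Pdk1 lies between −1.25 and −1.08 and Pdk3 between −0.62 and −0.54, Pdk2 spreads from 0.83 to 1.32, and Mpc1 lies on both sides of 0.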

How the data were processed

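RNA of 6 libraries was sequenced, 3 of itaconate and 3 of NaCl cultures, grouped by their titles. The authors deposited 1 table with a signal value per gene symbol and library, the estimated count after scaling between libraries. The submitters' processing notes list mm10, STAR 2.7.0f and RSEM 1.3.0. The annotation, strand setting and scaling tool were not given in the sources used here. From 80.0% to 82.2% of values above 0 were whole reads (within 0.02 reads), so no count model was used. The commonest value above 0 in each library was taken as 1 read. It gave size factors of 0.931 to 1.1017 and the read totals.

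Of 107 symbols on several entries the highest was kept. Genes with a mean of at least 10 were fitted as log2(value + 1) by limma 3.58.1 (R 4.3.3), two-sided, the variance following an intensity trend, adjusted over all 13170 genes. The code of the test was checked on simulated data with independent libraries and few changed genes. That check does not show how well the test holds for these data. Within groups, chi-square per degree of freedom was 12.8 to 25.5, so replicates differed beyond sampling noise.

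Lengths and positions are from GENCODE M21 on GRCm38, the assembly of mm10. The 10 genes and the 8 lists were chosen with earlier results of these data known. The rule named all 10 genes and the list genes with the smallest p; Pcx, Me1, Cs, Acss2, Gpt2, Ldhb, Vhl and genes that did not pass were named after their values were seen. A gene of the lists is not reported here.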

Additional observations from a re-analysis of the deposited data

How the results depend on the processing

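Over 19 alternatives Pdk1, Pdk3, Pdp2 and Pdha1 kept their direction and call in each, and Pdk2 and Pdp1 in 18. Pdk2 was at 1.01 without the intensity trend (adjusted p = 0.0536) and Pdp1 at 0.69 without itaconate replicate 2 (0.0528). The cause was not tested. Mpc1 changed sign after median-ratio rescaling (−0.001), quantile normalization (−0.026) and upper-quartile rescaling (−0.028), and without itaconate replicate 1 (−0.007) or NaCl replicate 3 (−0.053), in a range of −0.053 to 0.048 with 1 library left out. Dlat passed with the replicate block and GC content and length trends removed (−0.241, adjusted p = 0.042). Same-numbered libraries deviated together with correlations of 0.147, 0.038 and 0.13, each library correlating best with its own number. The labels do not tie the numbers to an animal or day. With the replicate block, 2854 genes rose and 2780 fell in place of 2400 and 2340, and 4 and 2 of the 10 genes. Leaving out 1 library gave 3 to 4 and 2 of the 10 genes. Of the list genes 8 rose, 5 without the intensity trend and 5 to 8 with 1 library left out, the lowest without itaconate replicate 2.

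Per kb of all exons, the mean share of Pdk1 was 54.7% in NaCl and 41.7% with itaconate, that of Pdk3 41.6% and 46.8%, and the kinase to phosphatase ratio 12.1 and 4.68. Without division by length, the shares were 78.2% and 67.5% for Pdk1, 2.06% and 7.53% for Pdk2 and 19.6% and 24.9% for Pdk3, and the ratio 12.2 and 4.22. Lengths differ between genes, which sets these shifts, and the order of NaCl and itaconate was the same with each length. The order of Pdk1 and Pdk3 with itaconate was not. Per kb of all exons the share of Pdk3 exceeded that of Pdk1. Per kb of the longest coding transcript, and without division by length, Pdk1 had the larger share. Pdk4 was under the mean of 10 needed for the test, and Pdk2 and Pdp1 had the fewest reads of the 10 genes.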

Other observations

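Same-numbered libraries shared some deviations among the 10 genes. Replicate 3 was the lowest of its group in both treatments for Pdha1 (4694.4 with itaconate and 3698.4 with NaCl), Pdp2 (615.8 and 482.0), Mpc1 (857.0 and 803.3) and Mpc2 (349.0 and 317.7), and the highest for Pdk2 (382.8 and 236.0) and Dlat (1166.0 and 1299.8). Replicate 2 was the lowest in both for Dlat (961.4 and 1199.4) and Pdhb (1674.6 and 1826.3), and replicate 1 for Pdk1 (2724.5 and 5847.7). Replicate 1 was the highest in both treatments for Pdk3 (1070.0 and 1590.9), Pdhb (1709.7 and 1833.6), Mpc1 (875.4 and 925.0), Mpc2 (454.6 and 370.2) and Pdha1 (5537.7 and 4229.9). The highest replicate differed between the treatments for Pdk1, Pdp1 and Pdp2, and the lowest for Pdk2, Pdk3 and Pdp1. These patterns were noticed after the values were seen and were not tested.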
